A study of Mus musculus with 8 samples.

Results

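Genes that carry out p53 signalling or brake the cell cycle were followed in whole fetal mouse lungs after tracheal occlusion (TO). The 10 members, of 55385 genes in the count files, were the CDK inhibitor genes Cdkn1a, Cdkn1b and Cdkn2c and the p53 target genes Pmaip1, Bbc3, Mdm2, Ccng1, Trp53inp1, Btg2 and Gadd45a. All 10 were found by symbol. Measured values of these libraries were used to choose them: Cdkn1a and Pmaip1 had been noted as higher in TO lungs and Cdkn1b as high in 1 control lung. Their values in TO against control are therefore a description, with no test.

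Both groups were lungs of C57BL/6 fetuses at E18.5 (age in embryonic days), 4 of control and 4 of TO fetuses, named here by group and replicate number. In the TO group, the trachea had been tied earlier in gestation through the wall of the uterus, in a ligature that also closed a carotid artery and a jugular vein. The closed airway, the closed vessels and the surgery therefore cannot be told apart in the comparison with control. The operated dams were given progesterone. The labels do not say which lungs came from separate litters, so p-values measure only the spread between these samples.

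The transcription factor p53 is kept at a low level by the ubiquitin ligase Mdm2, whose gene is itself a p53 target. After DNA damage and other stresses p53 accumulates and switches on genes that stop the cell cycle, such as Cdkn1a, and genes of cell death, such as Pmaip1 and Bbc3. CDK inhibitors also answer to many signals other than p53, and they rise as cells of developing organs leave the cycle.

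Depth and composition set some libraries apart. On genes, TO 1 held 270078 read pairs, and the other 7 libraries held between 22822261 (control 1) and 35002061 (TO 2). A single read pair in TO 1 was worth 3.70 CPM, the normalised read count, before TMM scaling for differences in composition, and all CPM below are after it. Control 3 stood apart from the other controls in several members. Values are given with and without TO 1 and control 3, which are also the libraries that the study leaves out without giving a reason. As control 3 stands apart in the members themselves, fold changes without it depend on that choice and are no stronger evidence than those over all libraries.

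The lung label fitted its markers, since surfactant protein C (Sftpc) ranged from 4437 CPM in TO 1 to 12788 CPM in TO 2. RNA of other tissues was also present. The 5 thymocyte genes, led by Lck, summed to 407 CPM in TO 1 and to 1.58 to 16.5 CPM elsewhere, where Ptcra was at 0 in all but TO 2 and TO 3 and Cd3e in all but control 2 and TO 3. The leukocyte marker Ptprc was at 75.8 CPM in TO 1 and 7.79 to 25.5 CPM elsewhere. The 5 cardiac muscle genes, led by Myh6, summed to 614, 385, 4211 and 3273 CPM in controls 1 to 4 and to 4989, 2120.2, 3202 and 4129 CPM in TO 1 to 4. The 4 hepatocyte genes, led by Alb, summed to 756 CPM in control 1, 307 CPM in TO 4 and 2.14 to 75.8 CPM elsewhere, with Ttr at 0 in control 2, control 3, TO 1 and TO 3 and Apoa1 at 0 in control 2. The part of these tissues in the member values was not tested. In bulk tissue, fewer cells that express a gene and less RNA per cell cannot be told apart.

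The p53 response element was searched by that name in RefSeq promoter windows of GRCm38.p6, from 250 bases before to 50 bases after a transcription start. This search was chosen after the Cdkn1a window had been read. It took 2 abutting copies of the element's unit, which reads the same on both strands, with at most 1 mismatch in 20 bases and none in the C and G of each core. Of 32851 windows, 22 held a match (0.0670%). The 12 windows of 8 members held 2 matches, at Cdkn1a and Ccng1, and 33 windows of other p53 targets held 1, at Rps27l, where it lies inside the annotated gene. With 2 mismatches allowed, 107 of all windows (0.326%) held a match, and the member count was still 2. Windows of Pmaip1 and Trp53inp1 were not analysed here. Both member stretches are shown because they place the motif beside genes described below, with the match in capitals.
Cdkn1a: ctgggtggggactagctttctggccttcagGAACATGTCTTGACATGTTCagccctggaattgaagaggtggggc
Ccng1: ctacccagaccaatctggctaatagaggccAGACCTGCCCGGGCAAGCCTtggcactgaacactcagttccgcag
The Cdkn1a stretch, chr17:29090898-29090972 on the plus strand, has its match from 51 bases before the start. In the Ccng1 stretch, chr11:40755437-40755511 on the minus strand, it begins 195 bases before. Neither stretch overlaps a gene of GENCODE M21. A match describes the letters and is no measurement of p53 binding.

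Among the CDK inhibitors, Cdkn1a encodes p21, through which p53 arrests cells before DNA replication. The gene (ENSMUSG00000023067.14) lies at chr17:29090976-29100727 on the plus strand. Its level was 19.1, 16.4, 53.4 and 20.5 CPM in controls 1 to 4 and 44.8, 28.0, 38.9 and 29.7 CPM in TO 1 to 4. Controls 1, 2 and 4 lay below every TO lung and control 3 above every one, so the groups overlapped. The mean was 27.3 ± 17.4 CPM in control (SD, n = 4) and 35.4 ± 7.90 CPM in TO (SD, n = 4). The TO 1 value rests on 13 read pairs, with an exact Poisson 95% interval of 23.9 to 76.6 CPM that covers counting error only.

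The log2 fold change of Cdkn1a was 0.30 (SE 0.36) over 8 libraries and 0.24 (SE 0.38) without TO 1. It was 0.85 (SE 0.19) without control 3 and 0.79 (SE 0.17) without control 3 and TO 1. It was lower without control 1, at 0.16 (SE 0.38), control 2, at 0.12 (SE 0.36), or control 4, at 0.19 (SE 0.39). Control 3 thus moved the value more than any other lung did. With the replicate number as a block the log2 fold change was 0.41 (SE 0.23). It was 0.40 (SE 0.21) with the specimen number explained below as a term. Exons of Cdkn1a overlap the antisense gene AC167363.2, and the unstranded counts cannot tell them apart.

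Cdkn1b encodes p27, which holds cyclin E and CDK2 inactive in cells that leave the cycle. The gene (ENSMUSG00000003031.14) lies at chr6:134920401-134925513 on the plus strand. Its level was 119.7, 113, 276 and 111 CPM in controls 1 to 4 and 134, 142, 150.0 and 114 CPM in TO 1 to 4. Control 3 lay far above the other 7 libraries, with TO 3 next, and the groups overlapped. The log2 fold change was -0.20 (SE 0.28) over 8 libraries and -0.19 (SE 0.31) without TO 1, but 0.25 (SE 0.13) without control 3 and 0.24 (SE 0.12) without control 3 and TO 1. Leaving out any other lung kept it below 0, between -0.32 and -0.11. With the replicate number as a block it was -0.10 (SE 0.18).

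Cdkn2c encodes p18, an inhibitor of CDK4 and CDK6. The gene (ENSMUSG00000028551.14) lies at chr4:109660876-109667189 on the minus strand. Its level was 38.4, 35.3, 8.80 and 32.4 CPM in controls 1 to 4 and 44.8, 24.9, 9.86 and 31.3 CPM in TO 1 to 4. Control 3 and TO 3 were lowest in their groups, and the groups overlapped. The TO 1 value rests on 13 read pairs, with a Poisson 95% interval of 23.9 to 76.6 CPM. The log2 fold change was -0.24 (SE 0.47) over 8 libraries, -0.38 (SE 0.49) without TO 1 and -0.68 (SE 0.35) without control 3 and TO 1. Without TO 3 it turned to 0.10 (SE 0.44). It was -0.06 (SE 0.52) without control 1, -0.12 (SE 0.53) without control 2, -0.16 (SE 0.53) without control 4, -0.56 (SE 0.35) without control 3, -0.45 (SE 0.55) without TO 4 and -0.08 (SE 0.18) with the replicate number as a block.

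**Figure D1:**
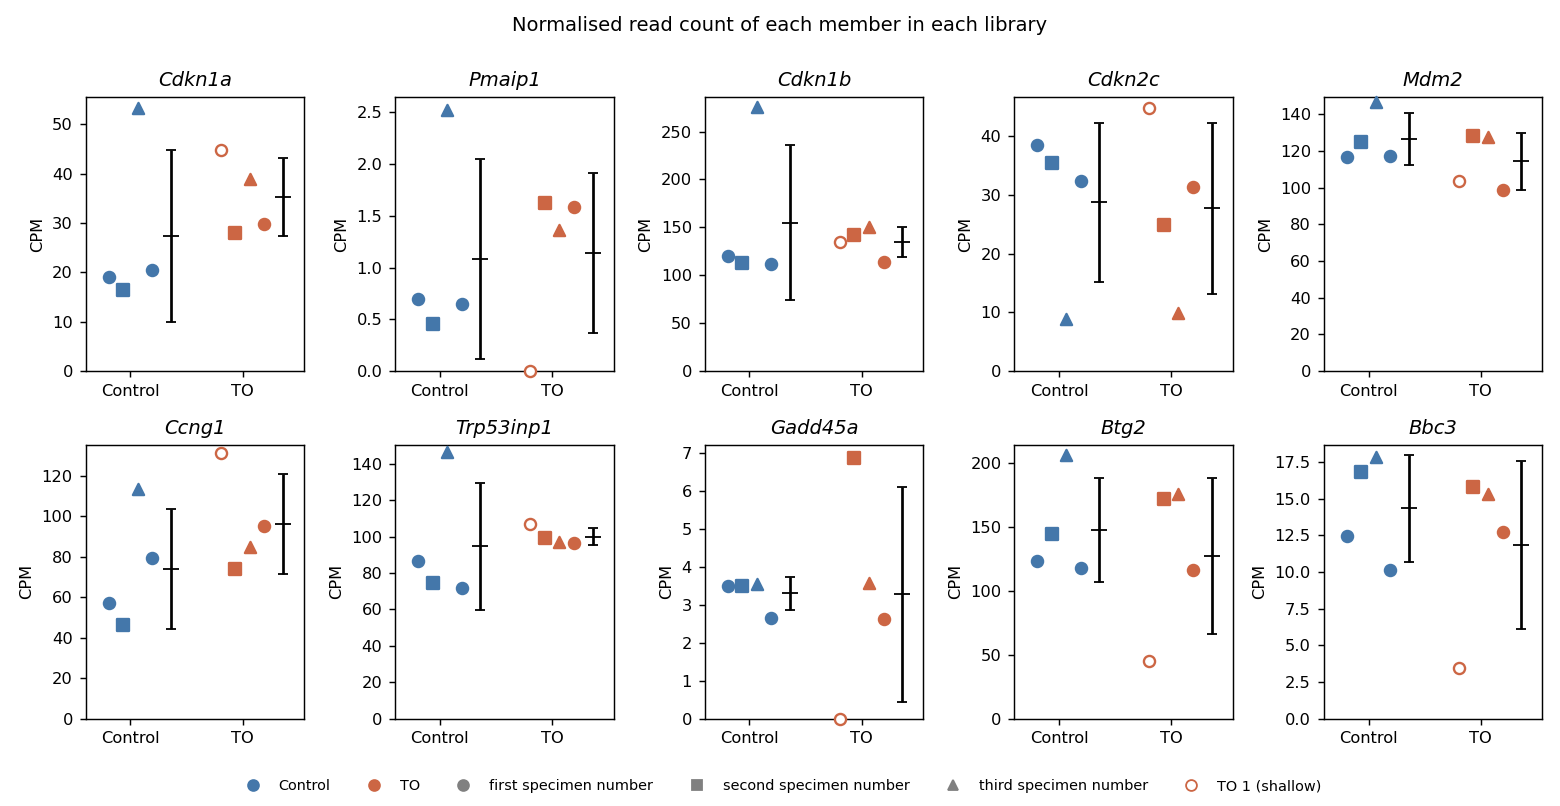
CPM of the 10 members in each of 4 control and 4 TO libraries, with a bar for the mean and SD of each group; marker shapes give the specimen number explained below, and the open circle is TO 1. Control 3 reached 53.4 CPM for Cdkn1a and 276 CPM for Cdkn1b, while control 3 and TO 3 were lowest in their groups for Cdkn2c.

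Of the cell death genes, Pmaip1 encodes Noxa and Bbc3 encodes Puma, BH3-only proteins that oppose the survival proteins of the BCL2 family. Pmaip1 was at 0.701, 0.455, 2.52 and 0.646 CPM in controls 1 to 4 and at 1.62, 1.36 and 1.59 CPM in TO 2 to 4. These TO lungs lay above controls 1, 2 and 4 and below control 3, the order also seen for Cdkn1a. TO 1 held 0 read pairs of Pmaip1, which allows up to 10.3 CPM (3 read pairs), so a level of this size was not detectable there. The log2 fold change of Pmaip1 was 0.42 (SE 0.62) over 8 libraries, 0.49 (SE 0.62) without TO 1 and 1.34 (SE 0.49) without control 3 and TO 1. It was lower without control 1, at 0.27 (SE 0.68), control 2, at 0.17 (SE 0.63), or control 4, at 0.24 (SE 0.69). It was 0.64 (SE 0.71) with the replicate number as a block, 0.73 (SE 0.61) with the specimen number explained below as a term and 0.81 (SE 0.52) by limma-voom.

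Bbc3 ranged from 10.2 to 17.8 CPM in control and from 12.7 to 15.8 CPM in TO 2 to 4, with 1 read pair in TO 1. Its groups overlapped. Its log2 fold change was -0.07 (SE 0.27) over 8 libraries, 0.03 (SE 0.23) without TO 1 and 0.15 (SE 0.22) without control 3 and TO 1, and leaving out 1 lung it ranged from -0.21 to 0.08.

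Mdm2, which closes the negative feedback on p53, ranged from 117 to 147 CPM in control and from 98.5 to 128 CPM in TO. The groups overlapped, and the log2 fold change was -0.13 (SE 0.14) over 8 libraries, -0.10 (SE 0.14) without TO 1 and -0.02 (SE 0.12) without control 3 and TO 1. Leaving out 1 lung, it ranged from -0.19 (without TO 2) to -0.03 (without control 3).

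Ccng1 encodes cyclin G1, a p53 target that takes part in the control of Mdm2. Its level was 57.0, 46.4, 113 and 79.5 CPM in controls 1 to 4 and 131, 73.9, 84.5 and 95.3 CPM in TO 1 to 4. The highest library was the shallow TO 1, with 38 read pairs and a Poisson 95% interval of 92.7 to 179.8 CPM, and the groups overlapped. The log2 fold change was 0.31 (SE 0.27) over 8 libraries, 0.19 (SE 0.27) without TO 1 and 0.47 (SE 0.20) without control 3 and TO 1. It was 0.59 (SE 0.22) without control 3, 0.14 (SE 0.25) without control 2 and 0.36 (SE 0.20) with the replicate number as a block.

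Trp53inp1, whose product acts in p53-dependent cell death and autophagy, was at 86.6, 74.4, 146 and 71.9 CPM in controls 1 to 4. The TO lungs, at 96.6 to 107 CPM, lay close together between control 3 and the other controls. The log2 fold change was 0.07 (SE 0.21) over 8 libraries, 0.04 (SE 0.23) without TO 1 and 0.33 (SE 0.11) without control 3 and TO 1, and it turned below 0 without control 2, at -0.03 (SE 0.22), or control 4, at -0.04 (SE 0.22).

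Btg2, an antiproliferative gene of the BTG and TOB family, ranged from 117 to 206 CPM in control and from 44.8 CPM in TO 1, with 13 read pairs, to 176 CPM in TO 3. The groups overlapped, and the log2 fold change was -0.13 (SE 0.30) over 8 libraries, 0.06 (SE 0.22) without TO 1 and 0.26 (SE 0.16) without control 3 and TO 1, with a range of -0.29 to 0.10 leaving out 1 lung. Gadd45a, a stress gene of growth arrest and DNA repair, ranged from 2.66 to 3.56 CPM in control and was at 6.89, 3.59 and 2.64 CPM in TO 2 to 4, with 0 read pairs in TO 1. The highest value of Gadd45a was that of TO 2, and its log2 fold change of 0.31 (SE 0.41) turned to -0.20 (SE 0.42) without that library; it was 0.40 (SE 0.36) without TO 1 and 0.44 (SE 0.39) without control 3 and TO 1. Its exons overlap E230016M11Rik on the other strand, and the counts of the pair cannot be told apart.

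Levels between genes were compared per kilobase of exon over the 7 libraries other than TO 1. Btg2 was the most abundant member at 55.0 ± 12.7 CPM per kb (SD, n = 7), before Cdkn1b at 32.2 ± 13.0, Mdm2 at 24.2 ± 2.89, Ccng1 at 22.4 ± 6.42 and Trp53inp1 at 14.8 ± 3.82 CPM per kb. Cdkn2c was at 9.63 ± 4.48, Cdkn1a at 8.28 ± 3.67, Bbc3 at 6.81 ± 1.29, Gadd45a at 2.13 ± 0.816 and Pmaip1 at 0.465 ± 0.266 CPM per kb. Cdkn1b, Mdm2 and Ccng1 followed each other by less than the larger of their SDs, and so did Cdkn2c, Cdkn1a and Bbc3.

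**Figure D2:**
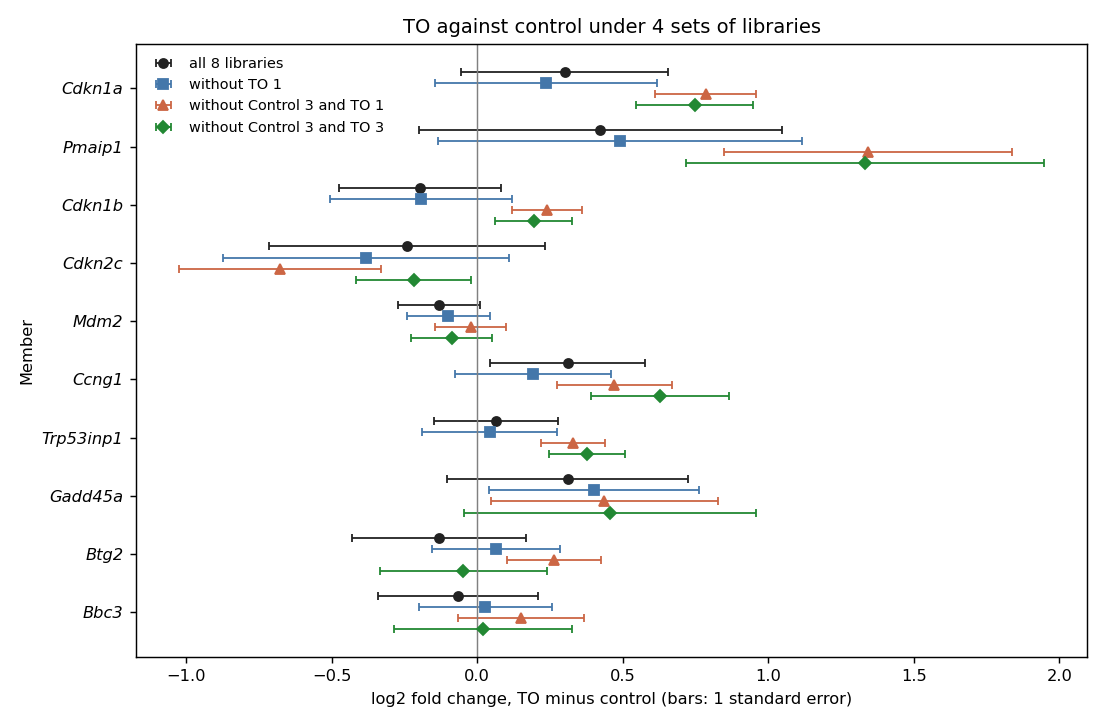
Log2 fold change of each member, TO minus control, with 1 standard error, over all 8 libraries, without TO 1, without control 3 and TO 1, and without control 3 and TO 3. Cdkn1a went from 0.30 over 8 libraries to 0.79 without control 3 and TO 1, and Cdkn1b from -0.20 to 0.24.

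Whether any gene differed between TO and control lungs was asked across all genes. The edgeR quasi-likelihood test called 0 of 22545 genes (0%) at a Benjamini-Hochberg adjusted p under 0.1, and 530 genes had an unadjusted p below 0.05. By DESeq2 there were 7 calls, by limma-voom 0, and by edgeR with the replicate number as a block (replicate block) 3, namely Lcn2, Myh3 and Myh8. No member and no gene of the pathway lists was among them, but Lcn2, S100a8 and S100a9 of the 4 neutrophil genes were among the 7. The neutrophil genes, led by S100a9, summed to 43.4, 33.4, 32.4 and 20.8 CPM in controls 1 to 4 and to 62.1, 53.7, 116 and 144 CPM in TO 1 to 4, so these groups did not overlap.

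TO and control CPM did not overlap for 0 of 10 members over 8 libraries, beside 2.01% of all genes tested. Without control 3 and TO 1 they did not overlap for 4 of 10, Cdkn1a, Pmaip1, Cdkn2c and Trp53inp1, beside 10.8% of all genes. The members were chosen on this contrast, and nothing is read from these counts.

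Other genes of p53 signalling showed no common direction in TO lungs, and 0 of the 14 p53 regulators and 0 of the 34 other p53 targets were called by edgeR. The p53 gene itself, Trp53, was at 92.3, 97.7, 57.4 and 67.7 CPM in controls 1 to 4 and 89.6, 76.8, 61.4 and 73.1 CPM in TO 1 to 4, with overlapping groups. The median log2 fold change was -0.03 for the regulators and -0.00 for the targets, beside -0.02 for all genes. Above 0 lay 5 of the 14 regulators and 17 of the 34 targets, beside 10549 of all 22545 genes. Without control 3 and TO 1 the medians were 0.03 and 0.08, beside -0.00, and leaving out 1 lung they ranged from -0.05 to 0.03 and from -0.02 to 0.09. Mdm4, the partner of Mdm2, had a log2 fold change of -0.05 (SE 0.17), Usp7, which removes ubiquitin from Mdm2 and p53, 0.03 (SE 0.11), and Dram1, a p53 target of autophagy, 0.02 (SE 0.20).

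The further lists also had 0 genes called by edgeR, and most of their medians turned sign with the lungs used, so no direction is read from them. The median log2 fold change was -0.08 for the 3 other CDK inhibitors tested of 4 listed (-0.12 to 0.02 leaving out 1 lung), 0.05 for 9 paralogs of members (-0.09 to 0.11) and -0.03 for 11 BCL2 family genes (-0.12 to -0.01), of which Bax is also among the p53 targets. For 17 genes of cyclins, CDKs, p27 turnover and the RB family it was -0.12 over 8 libraries and -0.46 without control 3 and TO 1, but 0.09 without control 1, 0.05 without TO 3 and 0.05 with the replicate block. For 20 genes of DNA replication and mitosis it was -0.18 over 8 libraries, -0.42 without TO 1, -0.49 without control 3, -0.46 without TO 4 and -0.68 without control 3 and TO 1, but 0.01 without control 1 and 0.14 without TO 3. It was 0.06 for immediate early and heat shock genes (-0.04 to 0.40 leaving out 1 lung), 0.01 for glucocorticoid response genes (-0.06 to 0.16) and 0.01 for integrated stress response genes (-0.15 to 0.05). For interferon response genes it was 0.82, with 2.18 without control 3 and -0.14 without TO 3, but 0.98 without both of these lungs. For hypoxia response genes it was -0.35, and it turned to 0.17 without control 3 and to 0.27 without control 3 and TO 1.

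Among cell type markers the median was -0.12 for lung epithelium, -0.26 for endothelium, 0.00 for mesenchyme, -0.31 for erythroid and -0.22 for hepatocyte genes. Without TO 1 these were -0.01, -0.17, -0.12, -0.13 and -0.14, and without control 3 and TO 1 they were 0.03, -0.09, -0.07, 0.04 and -0.48. It was 1.27 for the leukocyte gene, 0.83 for cardiac muscle, 5.76 for thymocyte and 1.66 for neutrophil genes. Without TO 1 these were 0.85, 0.61, 2.14 and 1.73, and without control 3 and TO 1 they were 0.96, 1.17, 1.86 and 1.79.

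The names of the count files end in 1 of 3 numbers, called specimen numbers here, which control and TO lungs share. The first holds controls 1 and 4 with TO 1 and 4, the second control 2 with TO 2, and the third control 3 with TO 3, and no source says what the number marks. Within these numbers the TO to control ratio of Cdkn1a was 1.50 in the first and 1.71 in the second but 0.729 in the third, leaving out TO 1. Pmaip1 had ratios of 2.36, 3.56 and 0.540, Ccng1 1.40, 1.59 and 0.746, and Trp53inp1 1.22, 1.33 and 0.665, each with 1 deep TO lung a number. These 4 were above 1 in the first and second numbers and below 1 in the third, which no other member was. For Pmaip1 the ratios in the first and second numbers rest on 16, 14 and 16 read pairs in controls 1, 2 and 4. The ratios were 0.986, 1.26 and 0.544 for Cdkn1b, 0.884, 0.705 and 1.12 for Cdkn2c and 0.843, 1.02 and 0.869 for Mdm2. They were 0.856, 1.96 and 1.01 for Gadd45a, 0.965, 1.19 and 0.854 for Btg2 and 1.13, 0.937 and 0.860 for Bbc3. Whether the ratios differ between numbers was not tested.

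A test of the specimen number with group as a term then asked which genes differed between numbers whatever the group. Lungs of the third number had the lowest Cdkn2c and replication genes and the highest Cdkn1b of all libraries. Across all genes edgeR called 1240 of 22545 (5.50%) at an adjusted p under 0.1, and on simulated counts the share of false calls of this test lay above that threshold. Cdkn2c was among the genes called. Cdkn1a, Cdkn1b and Pmaip1 were chosen for their values in these libraries, so their levels by number are a description, with no test and no member count. The high Cdkn1a and Cdkn1b of control 3, and low cell cycle genes in control 3 and TO 3, were known when the test was chosen, so the call of Cdkn2c and those of the cell cycle genes below are no independent support. The count over all genes was 347 without control 3, 604 without TO 4 and 1895 without TO 3.

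Cdkn2c had an adjusted p of 0.00203 in the edgeR quasi-likelihood test with Benjamini-Hochberg adjustment, and 0.00578 without TO 1, with a range of 5.03e-13 to 0.0435 over 13 alternatives, all of which called it. The low end of this range comes from the test of every gene with a read, whose smallest adjusted p over all genes was 0 and which should be read with caution. The same alternative gives the low end of the ranges below, save for Trp53inp1, Btg1 and Bak1. Both lungs of the third number lay below each of the other 6. The log2 difference between the third number and the mean of the other numbers, a contrast chosen after the values were seen, was -1.78 (SE 0.21).

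Cdkn1a, in the lungs of the third number, lay above the other 5 deep libraries, with a log2 difference of 1.04 (SE 0.23), and TO 1 lay between them. For Cdkn1b the third-number lungs lay above each of the other 6, with a log2 difference of 0.78 (SE 0.19), but TO 3, at 150.0 CPM, lay close to TO 2, at 142 CPM. Both differences rest largely on control 3. Pmaip1 had a log2 difference of 1.18 (SE 0.65), and TO 3 lay below TO 2 and TO 4.

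The other 6 p53 target members were not called by edgeR over 8 libraries, with adjusted p from 0.109 for Btg2 to 0.559 for Gadd45a. Their log2 differences between the third number and the others were 0.54 (SE 0.20) for Btg2, 0.53 (SE 0.22) for Ccng1, 0.49 (SE 0.18) for Trp53inp1, 0.29 (SE 0.23) for Bbc3, 0.22 (SE 0.13) for Mdm2 and -0.10 (SE 0.42) for Gadd45a. For Ccng1 and Trp53inp1 only control 3 stood above the other deep libraries, as TO 3 lay below TO 4 for Ccng1 and below TO 2 for Trp53inp1. Without TO 1, edgeR called 1259 of 22539 genes (5.59%), with Btg2 among them at an adjusted p of 0.0501, in a range of 2.51e-05 to 0.376 over 13 alternatives, of which 6 called it. These also included RLE scaling (0.0947), 5 reads in all libraries (0.0872), DESeq2 (0.00442) and every gene with a read. Without TO 3, edgeR also called Ccng1 at an adjusted p of 0.0236 (range 0.00532 to 0.595) and Trp53inp1 at 0.0231 (range 0.0231 to 0.976), and without control 2 Btg2 at 0.0704. Without TO 3 the third number held 1 lung, which is assumed to vary like the others.

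Other genes of p53 signalling were called by edgeR for the number about as often as the 5.50% of all genes, and nothing is read from these counts. DESeq2, which called 2260 of the 22545 genes, called 5 of the other p53 targets and 3 of the regulators. Of the 34 other p53 targets edgeR called 1, Dcxr, which encodes a sugar reductase, at 174 CPM in control 3, 117 CPM in TO 3 and 27.6 to 76.0 CPM elsewhere. Its adjusted p by edgeR was 0.00248, with a range of 6e-15 to 0.0692 over 13 alternatives, which all called it. Eda2r and Pml, named after their values were seen, were added without TO 1, and in the same list there were 4 calls without TO 3, where 1895 of 21878 genes were called. Of the 14 p53 regulators edgeR called 1, the checkpoint kinase gene Chek1, at an adjusted p of 0.0705 and a log2 difference of -1.87 (SE 0.43), and that call was lost without control 3 (0.452), TO 1 (0.106) or TO 4 (0.155), in a range of 4.65e-07 to 0.452. Without control 2 or TO 2 edgeR called 2 genes in each of these lists.

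Of the 3 other CDK inhibitors tested, edgeR called 0 for the number, and 1 without control 2. Cdkn1c, which encodes p57 and was the most abundant of them, was at 151 CPM in control 3, 155 CPM in TO 3 and 166 to 224 CPM elsewhere. Of the 9 paralogs edgeR called 1, Btg1 (4 without control 2 and 2 without TO 1, TO 2 or TO 3), and of the 11 BCL2 family genes 1, Bak1, each in the quasi-likelihood test with Benjamini-Hochberg adjustment. The adjusted p of Btg1, an antiproliferative gene like Btg2, was 0.0683 (range 0.00186 to 0.4), and the edgeR call was lost without control 1 (0.196), control 3 (0.4), TO 3 (0.114) or TO 4 (0.168). That of Bak1, a pore-forming protein of cell death, was 0.0544 (range 0.00717 to 0.204), and the edgeR call was lost without control 2 (0.173), control 3 (0.204), TO 2 (0.103), TO 3 (0.104) or TO 4 (0.126).

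Genes of dividing cells differed between the numbers. All 20 genes of DNA replication and mitosis were called by edgeR and lower in the third number, with a median log2 difference of -1.56 beside 0.00 for all genes, and 15 were still called without control 3. Mki67, a marker of cycling cells, was at 644, 483, 180.1 and 522 CPM in controls 1 to 4 and at 510.2, 287, 131 and 498 CPM in TO 1 to 4. Control 3 and TO 3 were lowest, followed by TO 2. Library measures also stood apart in control 3 and TO 3. Read pairs outside genes were 13.9% and 14.9% there and 9.64% to 13.2% elsewhere. The mitochondrial share was 1.11% and 1.22% there and 1.40% to 2.33% elsewhere. The part of these measures in the gene levels was not tested.

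Of the 17 genes of cyclins, CDKs, p27 turnover and the RB family, edgeR called 10, all lower in the third number, and 5 without control 3. The log2 difference was -1.65 (SE 0.17) for cyclin A2 (Ccna2), -1.27 (SE 0.17) for Cdk1 and -0.78 (SE 0.16) for Cdk4, a kinase that p18 inhibits. The edgeR call of Cdk4 was lost without control 3, at an adjusted p of 0.377 in a range of 9.48e-05 to 0.377. Skp2, which marks p27 for destruction and was named after its values were seen, was not called, at 1.61 CPM in control 3, 6.15 CPM in TO 3 and 6.97 to 20.7 CPM elsewhere.

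The 20 replication and mitosis genes summed to 2696, 2249.7, 688 and 2158 CPM in controls 1 to 4 and to 2786, 1521, 767 and 2224 CPM in TO 1 to 4. Among the 7 deep libraries Cdkn2c followed the same order, save that control 4 and TO 4 changed places. TO 1 was highest in both, but its Cdkn2c value rests on 13 read pairs (Poisson 95% interval 23.9 to 76.6 CPM). That interval also covers TO 2, TO 4 and controls 1, 2 and 4, so the place of TO 1 among them is not known. Cdkn1b was highest in the 2 libraries where this sum was lowest, and so was Cdkn1a among the 7 deep libraries. The part of dividing cells in these levels was not tested.

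**Figure D3:**
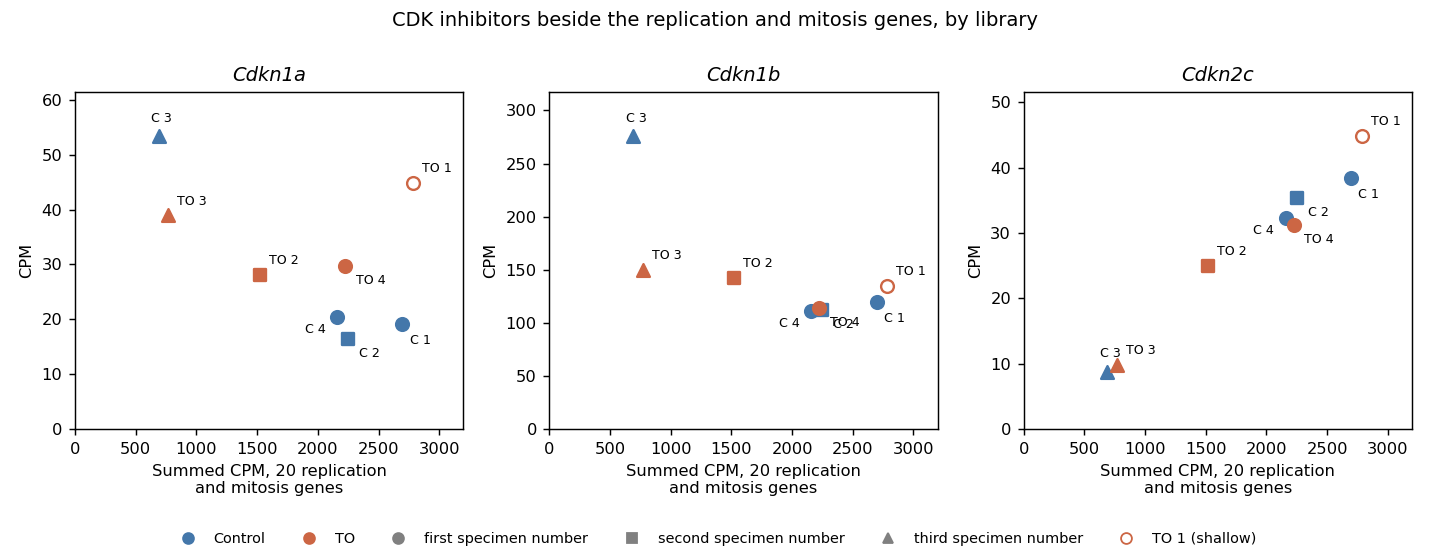
CPM of Cdkn1a, Cdkn1b and Cdkn2c against the summed CPM of 20 replication and mitosis genes, with 1 point per library. Control 3, at a sum of 688 CPM, had the highest Cdkn1a and Cdkn1b and the lowest Cdkn2c, TO 3, at 767 CPM, had low Cdkn2c and a Cdkn1b close to that of TO 2, and TO 1 had the highest sum, at 2786 CPM, and a Cdkn1a above that of TO 3.

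Genes of other responses were also called for the specimen number, beside 5.50% of all genes. Many of these calls were lost without control 3. Of 11 hypoxia response genes edgeR called 8, all higher in the third number, but 2 without control 3. Bnip3, a gene of mitophagy, was at 164 CPM in control 3, 67.6 CPM in TO 3 and 26.7 to 44.1 CPM elsewhere. Its edgeR call was lost without control 3, at an adjusted p of 0.32 in a range of 1.77e-23 to 0.32. The hypoxia genes, led by Vegfa, summed to 2306 CPM in control 3, 1716 CPM in TO 3 and 776 to 1204 CPM elsewhere. Of 11 interferon response genes edgeR called 10, all higher, and 6 without TO 3. They summed, led by Stat2, to 316 CPM in control 3, 565 CPM in TO 3 and 107 to 191 CPM elsewhere; high interferon genes in these lungs were known when the test was chosen. Of 13 immediate early and heat shock genes 4 were called, of 7 glucocorticoid response genes 3 and of 7 integrated stress response genes 1, all higher in the third number. Without control 3 these counts were 1, 0 and 0, and the glucocorticoid count was 1 without control 4 or TO 4. Klf9, a glucocorticoid target, was at 214 CPM in control 3, 152 CPM in TO 3 and 51.7 to 99.3 CPM elsewhere, and its edgeR call was lost without control 3, at an adjusted p of 0.18 in a range of 1.39e-19 to 0.18. The part of these responses in the Cdkn1a and Cdkn1b levels was not tested.

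Marker genes were called as well, 4 of 8 of lung epithelium, 4 of 4 erythroid and 3 of 4 of hepatocytes, and 0 of the endothelium, mesenchyme, leukocyte, cardiac muscle, thymocyte and neutrophil genes. The lung epithelium genes, led by Sftpc, summed to 10286, 14838, 10559.5 and 8473 CPM in controls 1 to 4 and to 5940.1, 17115, 13041 and 7718 CPM in TO 1 to 4, highest in both lungs of the second number. The erythroid genes, led by Hbb-bs, summed to 2866, 4219, 4587 and 3058 CPM in controls 1 to 4 and to 2017, 4392, 3510.03 and 2693 CPM in TO 1 to 4. Of the erythroid genes edgeR called 1 without control 3 and 2 without control 4 or TO 4. Of the hepatocyte genes it called 1 without control 3, 2 without control 1 or TO 1 and 0 without TO 4. Of the cardiac genes it called 3 without control 4, 2 without control 1 or TO 3 and 1 without TO 2, and of the neutrophil genes 1 without control 2. The part of these cells in the member levels was not tested.

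**Figure D4:**
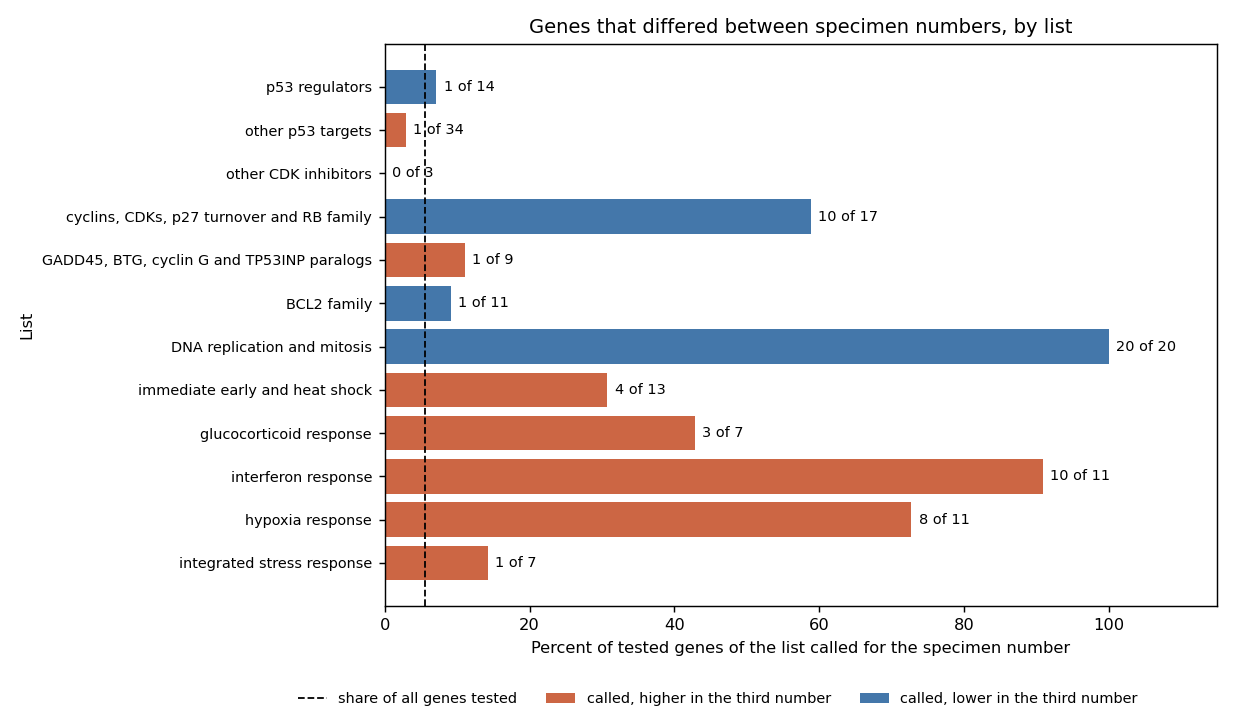
Share of the tested genes of each pathway list that edgeR called for the specimen number, split by direction in the third number, with the 5.50% of all genes as a dashed line. All 20 replication and mitosis genes were called, and 1 of 34 other p53 targets.

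The genes most like Cdkn1a over the 7 deep libraries were sought among 13107 genes by the root mean square difference of centred log2 CPM. They were Aatk at 0.16, Adamts15 at 0.17, Nceh1 at 0.18, Pcca at 0.19 and Gm44667 at 0.19, where the spread of Cdkn1a itself was 0.56. For Cdkn1b, with a spread of 0.43, they were Arhgef28 at 0.09, Adamts1 at 0.09, Bach1 at 0.10, Tmem38b at 0.10 and Tgfbr3 at 0.10. Adamts1, a secreted protease gene, was at 669 CPM in control 3, 348 CPM in TO 3 and 231 to 332 CPM elsewhere.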

How the data were processed

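The authors made NexteraXT libraries from whole lungs. The submitters' processing notes name STAR, DESeq2 and mm10; the version of STAR and the annotation are not given in the sources used here. The deposited counts are read pairs per gene, without normalisation, and the column for both strands together was used. Entries that name no gene were left out: 3.31% to 3.82% of read pairs were unmapped, 3.76% to 4.28% multimapping, 9.64% to 14.9% outside genes and 5.00% to 5.74% ambiguous. Of 55385 gene IDs, 55144 matched GENCODE M21 without the version.

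CPM were computed from the deposited counts with TMM factors. In R 4.3.3, edgeR 4.0.16 (quasi-likelihood test, Benjamini-Hochberg adjustment, threshold 0.1) was applied to genes that reached 5 reads in a minimum of 3 libraries, which all 10 members did. It was tested on simulated data, where the share of false calls was above the threshold in both tests, more so for the specimen number. Alternatives were DESeq2 1.42.0, limma 3.58.1 (voom), other scaling and filters, each lung left out, the 6 libraries without control 3 and TO 1, the specimen number or a replicate block as a term, and, added after seeing the data, leaving out control 3 and TO 3. Intervals cover counting error only.

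Members and lists were chosen with earlier results of these data known. Genes named by rule were the members, the 3 most abundant per kb of each list, list genes called, and the 5 most like Cdkn1a and Cdkn1b. Likeness was measured by log2 CPM (prior count 2, at least 50 reads in each deep library). Other genes, such as Bax, Ptcra, Cd3e, Skp2, Myh3 and Myh8, were named outside this rule. Lists were p53 regulators, p53 targets, CDK inhibitors, cyclins and their partners, paralogs, BCL2 family, replication and mitosis, stress and hormone responses, and cell type markers.

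Replicate numbers come from the titles. Deviations from the group means were correlated across 13107 genes, which are not independent. Between control and TO lungs of the same replicate number the correlations were 0.103, 0.209, 0.327 and 0.165. These values do not establish a pairing, and the main test used none, with the replicate block as an alternative only. Control 2 with TO 2 and control 3 with TO 3 also share their specimen number, so replicate and specimen number cannot be told apart there. Control 4 with TO 1 (0.141) and control 1 with TO 4 (0.134), which share only the specimen number, correlated more than control 1 with TO 1.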

Additional observations from a re-analysis of the deposited data

Results flagged for a closer look

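In each group of 4 lungs, the gap between the highest or lowest member value and the nearest other lung was set against the range of the group; chance flags about 1 in 20 groups. Cdkn1b was chosen for its high value in a control lung, and Cdkn1a and Pmaip1 for their values in these libraries, so theirs are a description and are not set against that rate. Control 3 was far above the other controls for Cdkn1a (53.4 CPM), Pmaip1 (2.52 CPM) and Cdkn1b (276 CPM). Of the other members, only Gadd45a had such a lung, control 4, below the other controls (2.66 CPM). TO 1 was flagged below the other TO lungs for Pmaip1, at 0 CPM. Its depth allows a level of up to 10.3 CPM, which covers the other TO lungs, so the flag shows no difference. The 3 values of control 3 come from 1 library and are not separate events.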

How the results depend on the processing

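For TO against control, the count of 0 genes called by edgeR became 3 with the replicate block and 7 with DESeq2, and the cause was not tested; it was 0 in each other alternative, with a range of 0 to 0 when a lung was left out. By edgeR 530 genes had an unadjusted p below 0.05, and limma-voom called 0. The replicate block changed no other call. For the specimen number, the count of 1240 became 2260 with DESeq2 and 2876 when every gene with a read was tested, an alternative whose smallest adjusted p was 0 and which should be read with caution, and ranged from 347 to 1895 when a lung was left out. Without a lung of the second or the third number, that number has 1 lung, which is assumed to vary like the others.

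Of 177 alternative log2 fold changes of members, 174 moved by less than 1 SD and 3, all of Pmaip1, by more. That SD was taken over log2 CPM with 1 added. It is wider than the SEs above for the members other than Pmaip1, so the 174 are not all stable. They include 2 moves without control 3, Cdkn1a from 0.30 (SE 0.36) to 0.85 and Cdkn1b from -0.20 (SE 0.28) to 0.25. Cdkn1a, Pmaip1 and Ccng1 lay above 0 and Mdm2 below 0 in each alternative that gave a value. Of 216 alternative list medians, 198 moved by less than 1 SD. Requiring 5 reads in all libraries gave no value for Pmaip1, Gadd45a and Bbc3, which TO 1 is too shallow to measure.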
